A study of Arabidopsis thaliana with 8 samples.

Results

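RNA was sequenced from untreated rosettes of Arabidopsis thaliana (Col-0 ecotype) at 28 days of age, and plants with a mutated PBL19 kinase were set against wild type. The PBL19C3A line is a pbl19 mutant in which the PBL19 promoter drives PBL19C3A carrying GFP and HA tags, and the submitters describe its phenotype as constitutive immunity. Wild type (WT) is untransformed Col-0. Each genotype had 2 libraries, so 4 of the 8 libraries of the series entered the comparison. The other 4, from sid2 and eds1 mutants with the same construct, helped to estimate the spread between libraries and are set beside the genes barely counted in WT. All 18048 genes in the deposited table of both genotypes were compared, and the account is arranged by gene families and by genes with at most 3 counts in each WT library. The labels do not say whether the line descends from a single insertion or whether libraries 1 and 2 came from separate plants, so p-values cover only the spread between these libraries, which may be technical.

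PBL19 belongs to the receptor-like cytoplasmic kinases, which relay signals from pattern receptors at the plasma membrane to kinase cascades. Kinases of this group are often held at the membrane by fatty acids attached to cysteines near the N terminus, and the C3A change replaces the cysteine at codon 3. When immune signalling runs without infection, Arabidopsis leaves are known to make defence proteins and specialised metabolites, to load the secretory pathway and to grow less. The first codons of PBL19 (AT5G47070) show the changed position, with codon 3, a cysteine codon that the labels give as alanine in the transgene, in capitals. They are from the RefSeq sequence of TAIR10.1, chr5:19120499-19120528, written along the minus strand.
PBL19: atgaacTGTctgttcttgttcaaatcaaag

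PBL19 itself stood at 2196.9 and 1636.9 FPKM in the PBL19C3A line, against 7.4 and 10.4 FPKM in WT, a log2 fold change of 7.71 ± 0.42 (standard error, edgeR adjusted p = 6.76e-05). Both PBL19C3A libraries were far above both WT libraries, and transgene reads are counted together with those of any native transcript left in the pbl19 mutant. The table holds 46473863 and 37373977 counts for the PBL19C3A line and 46423720 and 46550555 for WT. In all 4 libraries the highest count belonged to AT1G29930, a light-harvesting chlorophyll-binding protein gene. Rank correlation between the 2 libraries of a genotype was 0.986 in the PBL19C3A line and 0.985 in WT. FPKM is the authors' level per gene length and sequencing depth, and values of a genotype are given in the order library 1 and library 2.

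Of the 18048 genes, 3852 (21.3% of those tested) were higher in the PBL19C3A line and 2681 (14.9%) were lower, by the quasi-likelihood test of edgeR at an adjusted p under 0.05. Large changes ran almost entirely upward. At least 4-fold differences were called for 1128 genes higher and 118 genes lower, and at least 16-fold differences for 485 higher and 4 lower. The balance of the calls depended on the scaling. With upper-quartile factors 3015 genes were higher and 4141 lower. That scaling moved the median log2 fold change of all genes to -0.14 from 0.02. The counts of families whose members changed little can move with it, and counts under that scaling are given below for only part of the families. Leaving out 1 library lowered the calls to between 3710 and 4760, and 3462 of the 6533 calls were lost in at least 1 such fit. Over the 73 families and lists, 15 counts of called members stood at 1, and 12 of these were 0 without some library. Where leaving out a library moved a fold change given here by more than 1.5-fold, the value without that library follows it.

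**Figure D1:**
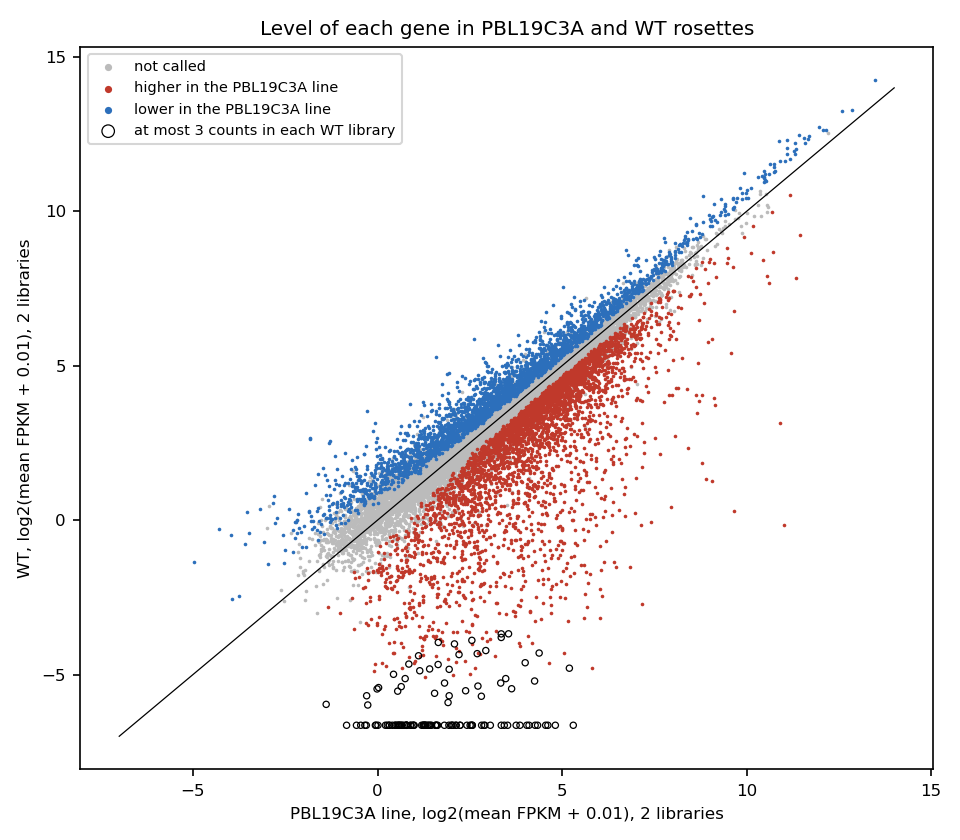
Mean FPKM of each gene in the PBL19C3A line (horizontal axis) and in WT (vertical axis), as log2(mean FPKM + 0.01) over 2 libraries, for all 18048 genes. Points below the diagonal are higher in the PBL19C3A line, where 1128 genes differ at least 4-fold against 118 above it, and the open circles at the bottom are the 116 genes with at most 3 counts in each WT library.

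Restricted to genes that reached 10 FPKM in one of the genotypes, 13 of the 15 with the highest fitted fold changes had at most 3 counts in each WT library. A fitted fold change depends on the prior count there, so the order of these 13 carries no meaning, and they are described further down by their counts. The other 2 were PR1 and FMO1, both textbook genes of systemic immunity. PR1 (AT2G14610), a secreted pathogenesis-related protein, stood at 2889.2 and 1246.6 FPKM in the PBL19C3A line, against 1.12 and 0.651 FPKM in WT (on the log2 scale 11.09 ± 0.61, 10.39 without PBL19C3A library 1). FMO1 (AT1G19250), which makes the mobile signal N-hydroxypipecolic acid, stood at 78.7 and 34.4 FPKM in the PBL19C3A line, against 0 and 0.0523 FPKM in WT (10.75 ± 0.79, 10.07 without PBL19C3A library 1, 9.77 without WT library 1, with no fold without WT library 2 because the other is listed at 0).

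The 15 largest decreases among such genes contained 7 SAUR genes, small auxin-induced genes that promote cell expansion, and near-identical copies among them may share reads. PRE1 (AT5G39860), a small helix-loop-helix protein that promotes elongation, had the strongest, at 0.937 and 0.675 FPKM in the PBL19C3A line, against 15.5 and 7.6 FPKM in WT (-3.83 ± 0.49, edgeR adjusted p = 0.00131, but -3.24 without WT library 1). ADS1 (AT1G06080), a fatty acid desaturase, stood at 3.69 and 3.65 FPKM in the PBL19C3A line, against 25.9 and 27.2 FPKM in WT (-2.89 ± 0.35). A pair of leaf thionins, small antimicrobial peptides, was lower as well. AT1G66100 stood at 32.1 and 32.8 FPKM in the PBL19C3A line, against 172.6 and 203.7 FPKM in WT (-2.57 ± 0.25), and THI2.2 (AT5G36910) at 7.9 and 11.2 FPKM in the PBL19C3A line, against 49.8 and 52.1 FPKM in WT (-2.46 ± 0.21). IMS1 (AT1G74040), which starts leucine synthesis, had the smallest error of the 15, at 4.37 and 4.44 FPKM in the PBL19C3A line, against 22 and 22.8 FPKM in WT (-2.39 ± 0.1, edgeR adjusted p = 4.83e-05). The cold-regulated COR15A (AT2G42540), which protects chloroplasts from freezing, stood at 8.07 and 4.12 FPKM in the PBL19C3A line, against 44.2 and 71.2 FPKM in WT (-3.28 ± 0.55). The acid phosphatase PAP3 (AT1G14700) stood at 6.15 and 8.2 FPKM in the PBL19C3A line, against 34.2 and 42.1 FPKM in WT (-2.45 ± 0.34).

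Families at the cell surface were among those with the largest share of higher members. Receptor-like proteins carry leucine-rich repeats outside the cell and lack a kinase, and 33 of the 46 measured members were higher and 2 lower, with a median log2 fold change of 1.97 against 0.02 over all genes. RLP38 (AT3G23120) stood at 12.1 and 17.2 FPKM in the PBL19C3A line, against 0.0349 and 0.0642 FPKM in WT (8.02 ± 0.38, edgeR adjusted p = 7.74e-05). RLP39 (AT3G24900) stood at 7.75 and 10.5 FPKM in the PBL19C3A line, against 0.0286 and 0.0469 FPKM in WT (7.77 ± 0.6). RLP11 and RLP28 had at most 3 counts in each WT library. Many receptor-like proteins lie in tandem and resemble each other, so reads may be divided between copies. With 1 library left out, lower receptor-like proteins were 1 without PBL19C3A library 1, 0 without WT library 1 and 0 without WT library 2.

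Lectin receptor kinases, which bind sugars or nucleotides outside the cell, followed the same direction in both large classes. In the G-type class 18 of 26 were higher, but 9 higher without WT library 1, and 2 lower (median 1.5). AT2G19130 stood at 18.4 and 19.2 FPKM in the PBL19C3A line, against 2.05 and 2.44 FPKM in WT (3.02 ± 0.23, edgeR adjusted p = 0.000178), and AT1G61420 at 6.71 and 6.4 FPKM in the PBL19C3A line and 0.703 and 0.991 FPKM in WT (2.91 ± 0.2). The G-type member with the largest change, AT1G61480, was low, at 0.778 and 1.37 FPKM in the PBL19C3A line and 0.0292 and 0.0327 FPKM in WT. In the L-type class 13 of 23 were higher and 3 lower (median 1.26). LECRKA4.2 (AT5G01550) stood at 4.54 and 5.88 FPKM in the PBL19C3A line, against 0.0154 and 0.13 FPKM in WT (6.03 ± 0.57, 5.23 without WT library 1, 7.88 without WT library 2), whereas AT3G45430 was lower, at 0.221 and 0.378 FPKM in the PBL19C3A line, against 2.09 and 2.32 FPKM in WT (-2.92 ± 0.57, a call lost without PBL19C3A library 1). When 1 library was dropped, lower L-type members were 1 without PBL19C3A library 1.

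Some calcium decoding and lipid signalling families leaned higher as well. The larger calcium family of IQ and CBP60 calmodulin-binding proteins gave no clear direction and is described further down. Of 16 calmodulins and calmodulin-like proteins, which sense calcium, 8 were higher and 0 lower, but 5 higher without PBL19C3A library 1 (median 0.67). CML37 (AT5G42380) stood at 11.1 and 11 FPKM in the PBL19C3A line, against 0.137 and 0.299 FPKM in WT (5.46 ± 0.38, 6.05 without WT library 2) and CML41 (AT3G50770) at 37.9 and 35.8 FPKM in the PBL19C3A line and 3.55 and 3.8 FPKM in WT (3.28 ± 0.29). Of 11 annexins and copines, proteins that bind membranes when calcium is present, 6 were higher and 2 lower. The copine BON1 (AT5G61900), a repressor of cell death, stood at 39.6 and 29 FPKM in the PBL19C3A line, against 3.95 and 4.73 FPKM in WT (2.93 ± 0.24, edgeR adjusted p = 0.000253), and annexin ANNAT4 (AT2G38750) was lower, at 2.05 and 2.31 FPKM in the PBL19C3A line, against 9.75 and 8.66 FPKM in WT (-2.12 ± 0.32). Among 36 phospholipases 11 were higher and 3 lower (median 0.2). Upper-quartile factors gave 10 higher and 5 lower, with a median of 0.04. PLA2A (AT2G26560), a patatin-like lipid hydrolase, led them at 290.4 and 245 FPKM in the PBL19C3A line, against 3.7 and 9.42 FPKM in WT (5.31 ± 0.55, 6.12 without WT library 2). In fits short of 1 library, lower phospholipases were 1 without PBL19C3A library 2 and 1 without WT library 1.

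**Figure D2:**
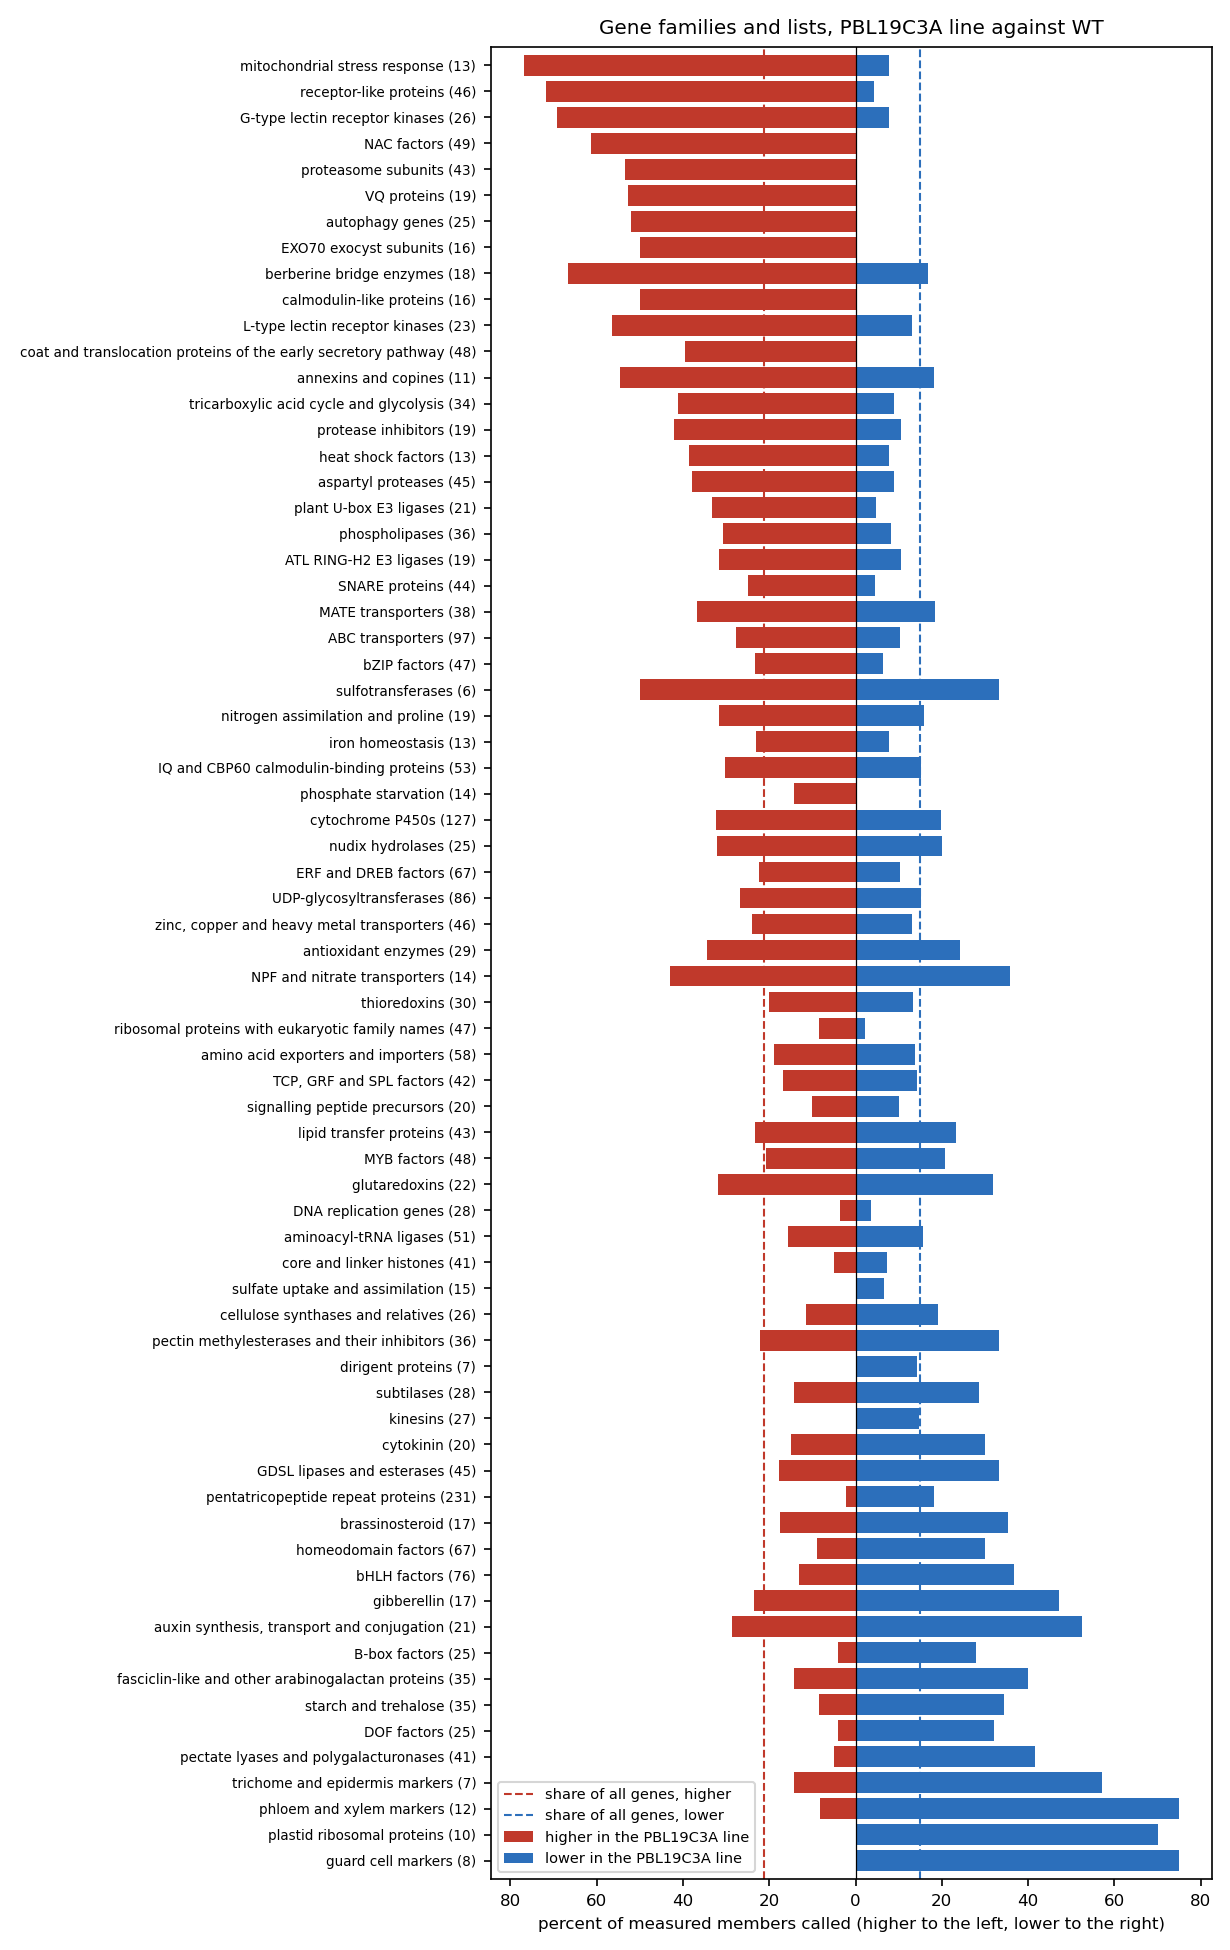
Percent of measured members called higher (red, to the left) and lower (blue, to the right) in the PBL19C3A line for each family or list with at least 5 measured members, whose number is in parentheses. Dashed lines mark the share over all genes, 21.3% higher and 14.9% lower. Mitochondrial stress genes and receptor-like proteins reach the furthest left, and guard cell and vascular markers the furthest right.

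Protein breakdown by proteasome and autophagy showed mostly small changes in 1 direction. Proteasome subunits form the complex that degrades ubiquitin-tagged proteins, and 23 of 43 were higher and 0 lower, but 9 higher without PBL19C3A library 1, 13 without WT library 1 and 13 without WT library 2 (median 0.36). The fold changes were mostly under 2. RPT5B (AT1G09100), a regulatory ATPase, stood at 18.4 and 17.4 FPKM in the PBL19C3A line, against 9.58 and 8.17 FPKM in WT (0.97 ± 0.12, edgeR adjusted p = 0.00116). The catalytic-core subunit PBD2 (AT4G14800) stood at 44 and 37.5 FPKM in the PBL19C3A line, against 21.8 and 19.5 FPKM in WT (0.94 ± 0.15), and RPT3 (AT5G58290) at 111.1 and 97.4 FPKM in the PBL19C3A line and 58 and 52.8 FPKM in WT (0.87 ± 0.11). With upper-quartile factors 13 subunits were higher and 0 lower, with a median of 0.20, so the direction held and the size was within reach of the scaling.

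Autophagy genes, which build the vesicles that carry cytoplasm to the vacuole, had 13 of 25 members higher and 0 lower, but 5 higher without PBL19C3A library 1, 7 without PBL19C3A library 2 and 4 without WT library 1 (median 0.47). ATG8H (AT3G06420), one of the ubiquitin-like proteins that coat these vesicles, stood apart at 65.6 and 43 FPKM in the PBL19C3A line, against 8.77 and 9.64 FPKM in WT (2.51 ± 0.26, edgeR adjusted p = 0.000543). ATG8D (AT2G05630) stood at 17.1 and 9.74 FPKM in the PBL19C3A line, against 6.54 and 5.96 FPKM in WT (1.05 ± 0.27, a call lost without PBL19C3A library 1, WT library 1 or WT library 2). The lipid transfer protein gene ATG2 (AT3G19190) stood at 20.7 and 23.3 FPKM in the PBL19C3A line and 9.27 and 13.3 FPKM in WT (0.92 ± 0.18).

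Of 21 plant U-box ubiquitin ligases 7 were higher and 1 lower. PUB54 (AT1G01680) stood at 72.9 and 57.6 FPKM in the PBL19C3A line, against 0 and 0.402 FPKM in WT (8.23 ± 0.72, edgeR adjusted p = 0.000496, but 7.23 without WT library 1, with no fold without WT library 2 because the other is listed at 0), while PUB39 (AT3G47820) changed less, at 9.26 and 8.83 FPKM in the PBL19C3A line and 2.31 and 2.97 FPKM in WT (1.73 ± 0.23). Of 45 aspartyl proteases 17 were higher and 4 lower, with AT5G10760 at 93.3 and 112.2 FPKM in the PBL19C3A line, against 1.31 and 2.29 FPKM in WT (5.79 ± 0.38, edgeR adjusted p = 0.000114) and AT3G51330 at 33.8 and 34 FPKM in the PBL19C3A line and 5.7 and 6.22 FPKM in WT (2.47 ± 0.17). Subtilases, the other large group of secreted proteases, leaned the other way, with 4 of 28 higher and 8 lower (median -0.60). SBT3.3 (AT1G32960), a subtilase of immune priming, was listed at 0 in WT library 1 and stood at 6.35 and 2.69 FPKM in the PBL19C3A line, against 0 and 0.381 FPKM in WT (4.48 ± 1.01, 3.76 without PBL19C3A library 1, 3.48 without WT library 1, with no fold without WT library 2 because the other is listed at 0, a call lost without PBL19C3A library 1), and AT5G03620 was lower, at 0.0461 and 0.111 FPKM in the PBL19C3A line, against 0.579 and 0.913 FPKM in WT (-3.24 ± 0.6, -3.84 without PBL19C3A library 2). Protease inhibitors had 8 of 19 members higher and 2 lower, but 5 higher without PBL19C3A library 1, PBL19C3A library 2 or WT library 2, including the Kunitz inhibitor KTI1 (AT1G73260) at 165.5 and 44.5 FPKM in the PBL19C3A line, against 2.35 and 1.83 FPKM in WT (5.6 ± 0.74, 4.38 without PBL19C3A library 1, 6.25 without PBL19C3A library 2) and TI1 (AT2G43510) at 97.3 and 68.4 FPKM in the PBL19C3A line and 5.3 and 1.99 FPKM in WT (4.45 ± 0.47, 5.29 without WT library 1). The KTI1 values of the 2 PBL19C3A libraries differed by more than 3-fold, and both were above both WT libraries. On leaving out 1 library, lower aspartyl proteases were 2 without PBL19C3A library 1, 1 without PBL19C3A library 2, 1 without WT library 1 and 1 without WT library 2. Higher subtilases were 2 without PBL19C3A library 1. Lower protease inhibitors were 0 without PBL19C3A library 1, 0 without PBL19C3A library 2, 1 without WT library 1 and 0 without WT library 2.

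Secretory families leaned higher. Coat and translocation proteins of the early pathway had 19 of 48 members higher and 0 lower, but 9 higher without PBL19C3A library 1 and 12 without WT library 1 (median 0.31). The cargo receptor AT1G26690 of the p24 family stood at 28.9 and 24.1 FPKM in the PBL19C3A line, against 8.36 and 9.75 FPKM in WT (1.51 ± 0.16, edgeR adjusted p = 0.000623), and AT2G16595, a subunit associated with the translocon, at 9.57 and 8.72 FPKM in the PBL19C3A line and 1.91 and 1.54 FPKM in WT (2.36 ± 0.26). EXO70 proteins, which tether vesicles at the plasma membrane, had 8 of 16 higher and 0 lower, but 5 higher without PBL19C3A library 1, 4 without PBL19C3A library 2 and 5 without WT library 1. EXO70B2 (AT1G07000), known from pattern-triggered immunity, stood at 82.5 and 68.7 FPKM in the PBL19C3A line, against 4.88 and 8.79 FPKM in WT (3.43 ± 0.41, edgeR adjusted p = 0.001), and EXO70E2 (AT5G61010) at 46.4 and 45.1 FPKM in the PBL19C3A line and 5.49 and 8.24 FPKM in WT (2.7 ± 0.23). Where 1 library was absent, lower coat and translocation genes were 1 without PBL19C3A library 2.

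SNARE proteins, which fuse vesicles with their target membrane, had 11 of 44 members higher and 2 lower, but 6 higher without PBL19C3A library 1 or WT library 1. That share of 25% is close to the 21.3% of all genes, and upper-quartile factors gave 8 higher and 6 lower. The 3 largest changes belonged to members that act at the plasma membrane. The syntaxin SYP122 (AT3G52400) stood at 133.6 and 121.7 FPKM in the PBL19C3A line, against 10.8 and 19 FPKM in WT (3.06 ± 0.44, edgeR adjusted p = 0.00212). Its partner SNAP33 (AT5G61210) stood at 149.7 and 131.3 FPKM in the PBL19C3A line and 38.6 and 46.2 FPKM in WT (1.69 ± 0.16) and the related SYP121 (AT3G11820) at 110.9 and 93.5 FPKM in the PBL19C3A line and 17.3 and 30.4 FPKM in WT (2.07 ± 0.36). After removal of 1 library, lower SNARE genes were 1 without WT library 1 and 1 without WT library 2.

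Mitochondrial stress genes had the largest share of higher members of any list described, 10 of 13 with 1 lower and a median of 2.17. Plant mitochondria answer a blocked respiratory chain by switching on alternative oxidases and dehydrogenases, which bypass the proton-pumping complexes, through NAC factors anchored in membranes. AOX1D (AT1G32350), an alternative oxidase, stood at 67.5 and 40 FPKM in the PBL19C3A line, against 0.102 and 0.479 FPKM in WT (7.43 ± 0.55, edgeR adjusted p = 0.000291, but 6.72 without WT library 1, 8.87 without WT library 2), while AOX1A, the main stress-induced oxidase of leaves, stood at 35 and 20.3 FPKM in the PBL19C3A line and 13.2 and 11.2 FPKM in WT (1.13 ± 0.31, a call lost without PBL19C3A library 1, WT library 1 or WT library 2). AATP1 (AT5G40010), an AAA-type ATPase, stood at 19.5 and 19.2 FPKM in the PBL19C3A line, against 0 and 0.189 FPKM in WT (7.5 ± 0.68, 6.49 without WT library 1, with no fold without WT library 2 because the other is listed at 0). BCS1 (AT3G50930), an AAA-type ATPase of the mitochondrial outer membrane, stood at 28.2 and 26.7 FPKM in the PBL19C3A line, against 0.792 and 2.44 FPKM in WT (4.04 ± 0.69, 3.43 without WT library 1, 5.05 without WT library 2). TIM17-1 (AT1G20350), a protein import subunit, stood at 15.7 and 17.6 FPKM in the PBL19C3A line, against 2.07 and 0.647 FPKM in WT (3.56 ± 0.6, 4.6 without WT library 1, 2.95 without WT library 2). In the list, only the internal dehydrogenase NDA1 was lower, at 47.9 and 47.3 FPKM in the PBL19C3A line and 67.3 and 80.7 FPKM in WT (-0.68 ± 0.12).

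Central carbon metabolism leaned higher. Of 34 genes of the tricarboxylic acid cycle and glycolysis 14 were higher and 3 lower, but 8 higher without PBL19C3A library 1 and 9 without WT library 2 (median 0.39, and 9 higher and 6 lower with upper-quartile factors). PFK3 (AT4G26270), a phosphofructokinase of glycolysis, stood at 19.3 and 14.8 FPKM in the PBL19C3A line, against 1.31 and 1.21 FPKM in WT (3.7 ± 0.24, edgeR adjusted p = 0.000112). IDH2 (AT2G17130), a regulatory isocitrate dehydrogenase subunit, stood at 27.9 and 30.7 FPKM in the PBL19C3A line and 9.7 and 10.2 FPKM in WT (1.52 ± 0.14). FUM2 (AT5G50950), the cytosolic fumarase that makes the leaf fumarate store, was lower at 22.7 and 20.4 FPKM in the PBL19C3A line, against 84.9 and 88.7 FPKM in WT (-2.05 ± 0.21, edgeR adjusted p = 0.000526), whereas mitochondrial FUM1 was slightly higher at 62.1 and 49.3 FPKM in the PBL19C3A line and 39.1 and 35.6 FPKM in WT (0.53 ± 0.13, a call lost without PBL19C3A library 1 or WT library 2). Starch and trehalose genes leaned lower, with 3 of 35 higher and 12 lower, but 7 lower without PBL19C3A library 1, 6 without PBL19C3A library 2 and 7 without WT library 1. The 3 higher ones had large fold changes. GPT2 (AT1G61800), which imports glucose phosphate into plastids, stood at 22.4 and 8.74 FPKM in the PBL19C3A line, against 0.0301 and 0.584 FPKM in WT (5.53 ± 0.84, 4.73 without PBL19C3A library 1, 4.62 without WT library 1, 8.49 without WT library 2), and its WT libraries differed widely. The trehalose phosphatase TPPD (AT1G35910) stood at 4.63 and 2.44 FPKM in the PBL19C3A line and 0.237 and 0.0865 FPKM in WT (4.3 ± 0.55, 5.21 without WT library 1), and the secreted amylase AMY1 (AT4G25000) at 6.88 and 4.15 FPKM in the PBL19C3A line and 0.309 and 0.371 FPKM in WT (3.92 ± 0.48).

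Among redox proteins, glutaredoxins and antioxidant enzymes changed in both directions. Glutaredoxins, small thiol enzymes, split into 7 higher and 7 lower of 22. GRXS13 (AT1G03850) stood at 119.2 and 129.7 FPKM in the PBL19C3A line, against 6.32 and 7.62 FPKM in WT (4.1 ± 0.27, edgeR adjusted p = 0.000114), and GRX480 was listed at 0 in both WT libraries. AT2G47880 shared the strongest decrease of all 18048 genes with the wall enzyme XTH17 (AT1G65310, -4.53 ± 0.52) and stood at 0.217 and 0.327 FPKM in the PBL19C3A line, against 5.71 and 6.67 FPKM in WT (-4.53 ± 0.31, edgeR adjusted p = 0.00013). ROXY2 (AT5G14070) was also lower, at 1.36 and 1.49 FPKM in the PBL19C3A line and 7.06 and 5.15 FPKM in WT (-2.11 ± 0.41, a call lost without PBL19C3A library 1). Thioredoxins had 6 of 30 members higher and 4 lower, both close to the shares over all genes. Upper-quartile factors gave 5 thioredoxins higher and 7 lower, so no one direction can be given for them. TRX5 (AT1G45145), a thioredoxin of immunity, stood at 162.5 and 122.1 FPKM in the PBL19C3A line, against 11.8 and 5.88 FPKM in WT (3.96 ± 0.43). Among 29 antioxidant enzymes 10 were higher and 7 lower (8 and 10 under upper-quartile factors). The higher ones included the ascorbate-recycling reductase gene MDHAR (AT3G09940) at 28.4 and 15.9 FPKM in the PBL19C3A line, against 0.182 and 0.45 FPKM in WT (6.01 ± 0.46, 6.76 without WT library 2) and the superoxide dismutase CSD1 (AT1G08830) at 116.7 and 88.1 FPKM in the PBL19C3A line and 29.2 and 27.7 FPKM in WT (1.8 ± 0.19). Chloroplast forms were among the lower ones, such as the thylakoid peroxidase TAPX at 45.9 and 49.2 FPKM in the PBL19C3A line and 89.7 and 81 FPKM in WT (-0.89 ± 0.12). Without 1 of the libraries, lower glutaredoxins were 2 without PBL19C3A library 1, 4 without WT library 1 and 3 without WT library 2. Lower thioredoxins were 2 without PBL19C3A library 1, 1 without PBL19C3A library 2 and 2 without WT library 1. Lower antioxidant enzymes were 2 without PBL19C3A library 1 and 3 without WT library 1.

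Enzymes and carriers of specialised metabolism changed widely and in both directions. Berberine bridge-like oxidases, secreted flavoproteins that oxidise sugars, glycosides and indole compounds, had 12 of 18 members higher and 3 lower (median 2.26). AT1G26390 stood at 69.9 and 59.7 FPKM in the PBL19C3A line, against 0.571 and 0.525 FPKM in WT (6.83 ± 0.29, edgeR adjusted p = 4.44e-05), and AT1G30700 at 54.2 and 25.4 FPKM in the PBL19C3A line and 0.473 and 0.39 FPKM in WT (6.43 ± 0.47, 5.81 without PBL19C3A library 1). Cytochrome P450s, which oxidise small molecules, had 41 of 127 higher and 25 lower, but 37 and 32 with upper-quartile factors. CYP71A13 (AT2G30770), which acts in camalexin synthesis, stood at 21.3 and 10.4 FPKM in the PBL19C3A line, against 0.162 and 0.325 FPKM in WT (5.92 ± 0.56, 6.51 without WT library 2), and its near-identical tandem copy may share reads with it. CYP76C5, CYP71B14 and CYP714A1 had at most 3 counts in each WT library. With 1 library left out, lower cytochrome P450s were 7 without PBL19C3A library 1, 13 without WT library 1 and 12 without WT library 2. Lower berberine bridge-like oxidases were 1 without PBL19C3A library 1.

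UDP-glycosyltransferases, which attach sugars to hormones and metabolites, had 23 of 86 members higher and 13 lower, both close to the shares over all genes. Under upper-quartile factors 21 were higher and 17 lower. UGT76B1 (AT3G11340), which glucosylates immune signals including N-hydroxypipecolic acid, stood at 35.8 and 26 FPKM in the PBL19C3A line, against 0.101 and 0.798 FPKM in WT (5.99 ± 0.71, edgeR adjusted p = 0.00148, but 5.17 without WT library 1, 8.03 without WT library 2). UGT73D1 (AT3G53150) stood at 15.4 and 13.2 FPKM in the PBL19C3A line, against 0 and 0.106 FPKM in WT (7.93 ± 0.67, 6.93 without WT library 1, with no fold without WT library 2 because the other is listed at 0). ABC transporters, pumps driven by ATP, had 27 of 97 higher and 10 lower, but 24 and 25 with upper-quartile factors. ABCG40 (AT1G15520) stood at 45.7 and 13.8 FPKM in the PBL19C3A line, against 0.348 and 0.771 FPKM in WT (5.68 ± 0.67, 4.59 without PBL19C3A library 1, 6.29 without PBL19C3A library 2, 6.34 without WT library 2), and ABCC7 (AT3G13100) at 12.8 and 9.71 FPKM in the PBL19C3A line and 0.647 and 0.915 FPKM in WT (3.8 ± 0.32). MATE carriers had 14 of 38 higher and 7 lower, but 9 higher without PBL19C3A library 1, and their best-known member EDS5 (AT4G39030), which exports the salicylic acid precursor from plastids, stood at 24.7 and 16.3 FPKM in the PBL19C3A line, against 0.951 and 0.899 FPKM in WT (4.43 ± 0.27). LUP5 (AT1G66960), a triterpene cyclase listed at 0 in WT library 1, stood at 29 and 36.9 FPKM in the PBL19C3A line, against 0 and 0.0819 FPKM in WT (9.48 ± 0.66, 8.48 without WT library 1, with no fold without WT library 2 because the other is listed at 0). When 1 library was dropped, lower UDP-glycosyltransferases were 6 without PBL19C3A library 1. Lower ABC transporters were 3 without PBL19C3A library 1, 4 without PBL19C3A library 2 and 2 without WT library 2. Lower MATE carriers were 4 without PBL19C3A library 1.

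Among nutrient carriers, single genes changed far more than their families. Nitrate and peptide carriers had 6 of 14 higher and 5 lower. NRT2.6 (AT3G45060) stood at 28.5 and 5.5 FPKM in the PBL19C3A line, against 0.479 and 0.404 FPKM in WT (5.2 ± 0.82, 3.6 without PBL19C3A library 1, 5.94 without PBL19C3A library 2), and NRT1.8 (AT4G21680), which unloads nitrate from the xylem, at 13.3 and 3.26 FPKM in the PBL19C3A line and 0.194 and 0.237 FPKM in WT (5.14 ± 0.74, 3.83 without PBL19C3A library 1, 5.81 without PBL19C3A library 2). In both, library 1 of the PBL19C3A line was several times above library 2, and both were above WT. The amino acid importer LHT1 (AT5G40780) stood at 45.9 and 45.7 FPKM in the PBL19C3A line, against 1.89 and 2.02 FPKM in WT (4.49 ± 0.28, edgeR adjusted p = 9.76e-05) and LHT7 (AT4G35180) at 39.3 and 32.4 FPKM in the PBL19C3A line and 0.0364 and 0.153 FPKM in WT (8.34 ± 0.71, 7.72 without WT library 1, 9.42 without WT library 2), in a family with 11 of 58 higher and 8 lower, where 8 and 14 under upper-quartile factors gave no stable direction. Cytosolic glutamine synthetase, named GSR 1 in the annotation (AT5G37600), stood at 75 and 82.7 FPKM in the PBL19C3A line, against 7.47 and 9.84 FPKM in WT (3.15 ± 0.2, edgeR adjusted p = 0.000112). In fits short of 1 library, lower nitrate and peptide carriers were 3 without PBL19C3A library 1, 3 without PBL19C3A library 2 and 3 without WT library 2. Higher amino acid carriers were 7 without PBL19C3A library 1, 7 without WT library 1 and 7 without WT library 2. Lower amino acid carriers were 5 without PBL19C3A library 1, 5 without PBL19C3A library 2, 2 without WT library 1 and 3 without WT library 2.

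In the sulfate and phosphate lists few members were called, and the iron list sat near the shares over all genes. Of 15 measured sulfate genes 0 were higher and 1, the sulfate carrier SULTR2;1 (AT5G10180), was lower, at 43.8 and 27.1 FPKM in the PBL19C3A line, against 90.7 and 71.7 FPKM in WT (-1.24 ± 0.23). Of 14 phosphate starvation genes 2 were higher and 0 lower. One was WRKY75 (AT5G13080), a factor of phosphate starvation and senescence, at 66 and 34.6 FPKM in the PBL19C3A line, against 0.277 and 0.329 FPKM in WT (7.23 ± 0.41, edgeR adjusted p = 0.000123). In the iron list 3 of 13 were higher and 1 lower, the 3 being 23.1% beside 21.3% of all genes. Among them was the metal-nicotianamine carrier YSL3 (AT5G53550) at 90.2 and 115.6 FPKM in the PBL19C3A line, against 20.3 and 30.2 FPKM in WT (1.98 ± 0.21). On leaving out 1 library, lower phosphate starvation genes were 1 without PBL19C3A library 1.

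**Figure D3:**
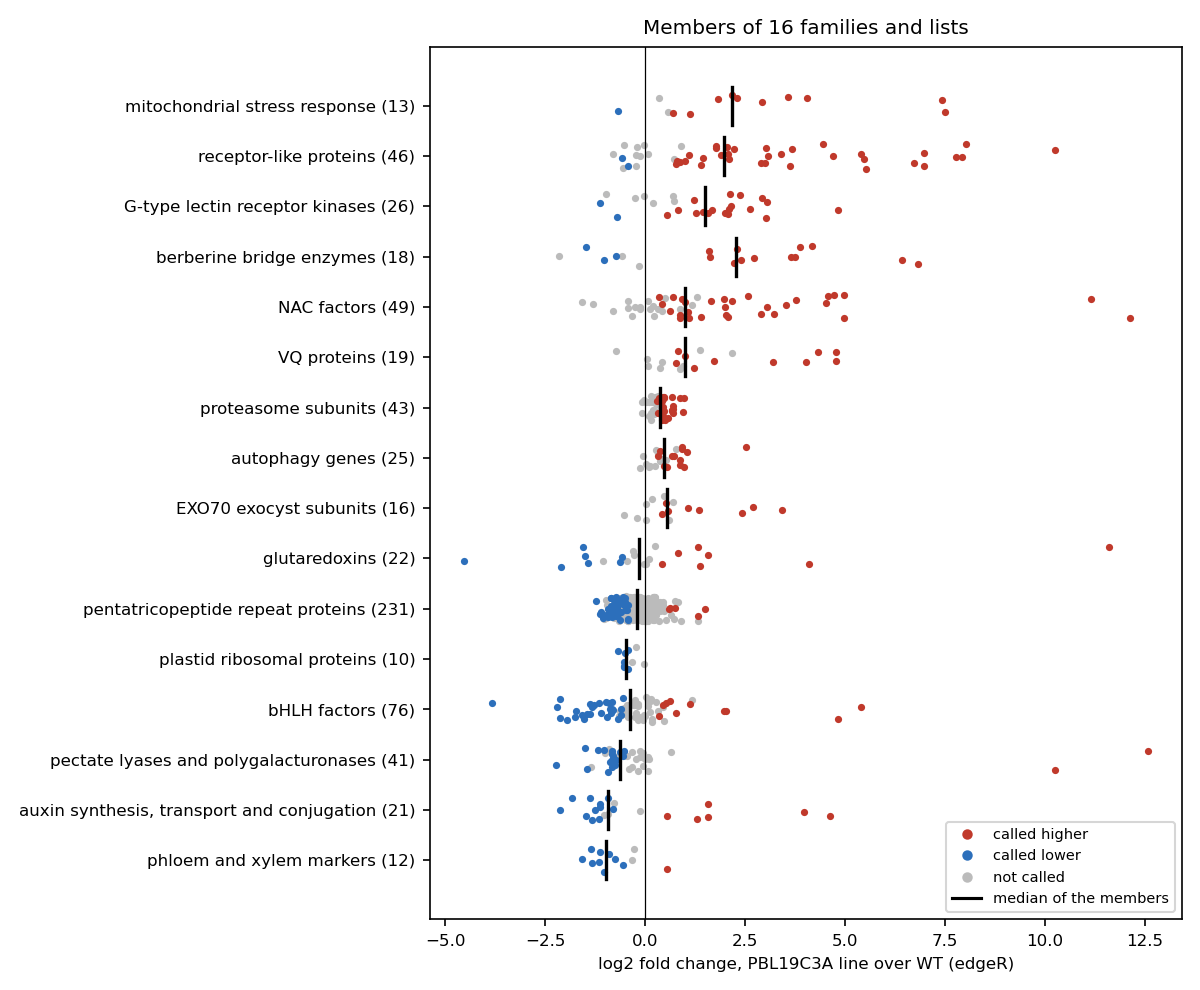
Log2 fold change (PBL19C3A line over WT) of every measured member of 16 families and lists, 1 point per gene, red where called higher, blue where called lower and grey where not called, with the median as a black bar. Proteasome subunits stay below 1, receptor-like proteins spread widely upward, and glutaredoxins reach down to -4.53. Points of genes listed at 0 in both WT libraries depend on the prior count and mark no size.

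Transcription factor families divided by class. NAC factors, which include regulators of senescence and stress, had 30 of 49 members higher and 0 lower (median 0.99, and 25 higher and 1 lower with upper-quartile factors). NAC003 (AT1G02220) stood at 60.2 and 33.5 FPKM in the PBL19C3A line, against 0.853 and 2.01 FPKM in WT (4.98 ± 0.46, edgeR adjusted p = 0.000387, but 5.7 without WT library 2), and ANAC087 (AT5G18270), known from programmed cell death of the root cap, at 16.7 and 11.3 FPKM in the PBL19C3A line and 0.492 and 0.358 FPKM in WT (4.96 ± 0.31). VQ proteins, small partners of WRKY factors, had 10 of 19 higher and 0 lower (median 1.00). SIB1 (AT3G56710), a partner of WRKY33, stood at 81.7 and 79.7 FPKM in the PBL19C3A line, against 1.24 and 6.64 FPKM in WT (4.31 ± 0.68, 3.54 without WT library 1, 5.95 without WT library 2). Of 13 heat shock factors 5 were higher and 1 lower, with HSFA8 (AT1G67970) at 15.9 and 17.2 FPKM in the PBL19C3A line and 1.47 and 3 FPKM in WT (2.85 ± 0.41, 3.44 without WT library 2) and HSFC1 (AT3G24520) at 1.47 and 1.97 FPKM in the PBL19C3A line and 6.33 and 7.8 FPKM in WT (-2.08 ± 0.47, a call lost without PBL19C3A library 1 or WT library 2).

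Several classes known from growth and light responses leaned lower. Of 76 bHLH factors 10 were higher and 28 lower, but 9 lower without PBL19C3A library 1, 16 without PBL19C3A library 2, 16 without WT library 1 and 15 without WT library 2 (median -0.37). Homeodomain factors had 6 of 67 higher and 20 lower, but 8 lower without PBL19C3A library 1, 13 without PBL19C3A library 2, 12 without WT library 1 and 13 without WT library 2. ATHB-8, listed as HB-8 (AT4G32880), a factor of vein formation, stood at 4.92 and 5.6 FPKM in the PBL19C3A line, against 12.1 and 13.4 FPKM in WT (-1.32 ± 0.18, edgeR adjusted p = 0.00188). DOF factors had 1 of 25 higher and 8 lower, but 3 lower without PBL19C3A library 1, 5 without PBL19C3A library 2 and 2 without WT library 1, led by CDF1 (AT5G62430), a repressor of flowering, at 5.97 and 9.53 FPKM in the PBL19C3A line, against 24.1 and 33 FPKM in WT (-1.92 ± 0.26). B-box factors had 1 higher and 7 lower of 25, but 1 lower without PBL19C3A library 1, 2 without WT library 1 and 3 without WT library 2, and the 1 higher was the flowering activator CO (AT5G15840), at 1.92 and 1.14 FPKM in the PBL19C3A line, against 0.224 and 0.387 FPKM in WT (2.21 ± 0.5, a call lost without PBL19C3A library 1 or WT library 1). MYB factors were even, with 10 higher and 10 lower of 48. MYB122 (AT1G74080), a regulator of indole glucosinolates, stood at 6.33 and 2.31 FPKM in the PBL19C3A line and 0 and 0.0631 FPKM in WT, and MYB15 (AT3G23250), a regulator of lignin in immunity, at 3.33 and 2.71 FPKM in the PBL19C3A line and 0.0565 and 0.21 FPKM in WT (4.37 ± 0.5, 3.72 without WT library 1, 5.52 without WT library 2). Where 1 library was absent, higher MYB factors were 6 without WT library 1. Lower MYB factors were 4 without PBL19C3A library 1, 4 without WT library 1 and 6 without WT library 2. Higher bHLH factors were 6 without PBL19C3A library 2 and 6 without WT library 1. Higher homeodomain factors were 3 without PBL19C3A library 1, 3 without PBL19C3A library 2, 3 without WT library 1 and 3 without WT library 2.

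Ethylene response and DREB factors had 15 of 67 members higher and 7 lower, near the shares over all genes. ERF1 (AT3G23240), which joins ethylene and jasmonate signals, stood at 3.48 and 2.99 FPKM in the PBL19C3A line, against 0.182 and 0.0864 FPKM in WT (4.34 ± 0.45). DREB19 (AT2G38340) stood at 7.6 and 4.05 FPKM in the PBL19C3A line and 0.188 and 0.0617 FPKM in WT (5.3 ± 0.54, 6.26 without WT library 1). The bZIP factors had 23.4% of members higher, near the 21.3% of all genes, and 6.38% lower, beside 14.9%. Upper-quartile factors gave 8 bZIP factors higher and 6 lower. Of 47 bZIP factors 11 were higher and 3 lower, but 5 higher without PBL19C3A library 1, 6 without PBL19C3A library 2, 4 without WT library 1 and 7 without WT library 2, including TGA3 (AT1G22070), a partner of the salicylic acid receptors, at 14.5 and 16 FPKM in the PBL19C3A line, against 4.82 and 5.86 FPKM in WT (1.47 ± 0.14, edgeR adjusted p = 0.000406). After removal of 1 library, higher ERF and DREB factors were 9 without PBL19C3A library 1. Lower ones were 3 without PBL19C3A library 1, 2 without PBL19C3A library 2 and 3 without WT library 2. Lower bZIP factors were 1 without PBL19C3A library 2 and 1 without WT library 2.

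Growth hormone lists had more members called lower than higher. Of auxin and gibberellin genes 28.6% and 23.5% were higher, beside 21.3% of all genes, and 52.4% and 47.1% lower, beside 14.9%. Of 21 auxin genes 6 were higher and 11 lower (median -0.94). YUC9 (AT1G04180), a synthesis gene, stood at 0.626 and 0.448 FPKM in the PBL19C3A line, against 2.28 and 2.32 FPKM in WT (-2.12 ± 0.4). YUC2 (AT4G13260), another, stood at 0.709 and 0.723 FPKM in the PBL19C3A line, against 2.65 and 2.28 FPKM in WT (-1.82 ± 0.29), and the import carriers AUX1, LAX1, LAX2 and LAX3 were all called lower. Those called higher were PID, IAR3, ILR1 and 3 genes that conjugate auxin to amino acids. Of the conjugating genes, GH3.3 (AT2G23170) stood at 66.6 and 55.3 FPKM in the PBL19C3A line, against 5.02 and 2.48 FPKM in WT (3.97 ± 0.63, 4.56 without WT library 1), and BRU6 (AT4G37390) at 25.3 and 11.8 FPKM in the PBL19C3A line, against 1.14 and 0.309 FPKM in WT (4.63 ± 0.81, 3.99 without PBL19C3A library 1, 5.83 without WT library 1, 3.97 without WT library 2). In the cytokinin list 3 of 20 were higher and 6 lower. CKX3 (AT5G56970), an oxidase that degrades cytokinins, stood at 1.72 and 1.9 FPKM in the PBL19C3A line, against 0.0723 and 0 FPKM in WT (5.42 ± 0.87, with no fold without WT library 1 because the other is listed at 0, 4.46 without WT library 2). ARR15 (AT1G74890), a type-A response regulator that cytokinin switches on, was lower at 0.324 and 0.463 FPKM in the PBL19C3A line, against 6.46 and 4.9 FPKM in WT (-3.83 ± 0.47, edgeR adjusted p = 0.00113). Without 1 of the libraries, higher cytokinin genes were 1 without PBL19C3A library 1 and 1 without WT library 1.

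Of 17 gibberellin genes 4 were higher and 8 lower, but 5 lower without PBL19C3A library 1 or WT library 1. GA20OX1 (AT4G25420), a synthesis gene, stood at 0.437 and 0.514 FPKM in the PBL19C3A line, against 1.83 and 2.59 FPKM in WT (-2.23 ± 0.47, a call lost without PBL19C3A library 1). GA3OX1 (AT1G15550), which completes the synthesis, stood at 0.892 and 0.515 FPKM in the PBL19C3A line, against 3.49 and 1.88 FPKM in WT (-1.95 ± 0.41, a call lost without PBL19C3A library 2 or WT library 1). The lower ones were not only synthesis genes, and RGL1 (AT1G66350) was lower at -1.93 on the log2 scale. The receptor gene GID1B was higher, at 10.5 and 9.38 FPKM in the PBL19C3A line and 3.14 and 2.71 FPKM in WT (1.72 ± 0.3). The median of the gibberellin list was -0.02. Among brassinosteroid genes, BAS1 (AT2G26710, -1.44) and BRS1 (AT4G30610, -1.38) were lower. Brassinosteroid genes had 3 of 17 higher and 6 lower, but 3 lower without PBL19C3A library 1, WT library 1 or WT library 2, and the higher ones included the receptor gene BRL3 (AT3G13380), expressed in vascular cells, at 10.1 and 6.41 FPKM in the PBL19C3A line, against 1.1 and 0.819 FPKM in WT (3.05 ± 0.26, edgeR adjusted p = 0.000262), and the co-receptor BAK1 (AT4G33430) at 43.7 and 39.1 FPKM in the PBL19C3A line and 15.1 and 19 FPKM in WT (1.24 ± 0.16). With 1 library left out, higher gibberellin genes were 2 without PBL19C3A library 1, 2 without PBL19C3A library 2, 2 without WT library 1 and 1 without WT library 2.

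Cell wall families mostly leaned lower, with a few strong exceptions. Pectate lyases and polygalacturonases, which cut pectin, had 17 of 41 lower and 2 higher, but 8 lower without PBL19C3A library 1, 10 without PBL19C3A library 2, 11 without WT library 1 and 10 without WT library 2 (median -0.62). AT4G24780, a pectate lyase-like gene, stood at 8.67 and 10.8 FPKM in the PBL19C3A line, against 29 and 24.3 FPKM in WT (-1.5 ± 0.15, edgeR adjusted p = 0.000522). The 2 higher ones, ADPG1 and PGAZAT, are polygalacturonases known from organ abscission and pod opening, and both were listed at 0 in WT. The higher ones were 1 without WT library 1, where ADPG1 lost its call. Pectin methylesterases and their inhibitors had 8 higher and 12 lower of 36, but 3 lower without PBL19C3A library 1, 6 without PBL19C3A library 2, 4 without WT library 1 and 7 without WT library 2, and AT2G45220 was among the largest changes, at 217.5 and 125.9 FPKM in the PBL19C3A line, against 0.781 and 1.12 FPKM in WT (7.44 ± 0.39, edgeR adjusted p = 6.5e-05). Without PBL19C3A library 1, PBL19C3A library 2 or WT library 1, more members of that family were higher than lower.

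Fasciclin-like and other arabinogalactan proteins had 14 of 35 lower and 5 higher, but 8 lower without PBL19C3A library 1, 7 without PBL19C3A library 2 and 8 without WT library 2, the higher ones led by AGP5 (AT1G35230) at 70.3 and 68 FPKM in the PBL19C3A line, against 0.253 and 1.9 FPKM in WT (5.91 ± 0.63, 5.09 without WT library 1, 7.92 without WT library 2). GDSL lipases, many of which act in cuticle and wall, had 15 of 45 lower and 8 higher, but 6 lower without PBL19C3A library 1 and 9 without WT library 1. Lipid transfer proteins, secreted carriers of lipids, had 10 higher and 10 lower of 43, but 6 higher without WT library 2. AT5G55450 stood at 109.3 and 101.9 FPKM in the PBL19C3A line, against 3.43 and 5.46 FPKM in WT (4.53 ± 0.34). Its neighbour AT5G55460 stood at 49.1 and 59.1 FPKM in the PBL19C3A line, against 0.791 and 1.22 FPKM in WT (5.64 ± 0.28). Cellulose synthases and relatives had 3 of 26 higher and 5 lower, but 2 lower without PBL19C3A library 1 and 3 without WT library 1, and CSLE1 (AT1G55850) stood at 40.1 and 47.5 FPKM in the PBL19C3A line and 10.2 and 12.9 FPKM in WT (1.89 ± 0.14). When 1 library was dropped, higher arabinogalactan proteins were 2 without PBL19C3A library 1, 2 without WT library 1 and 2 without WT library 2. Lower lipid transfer proteins were 6 without PBL19C3A library 1 and 3 without WT library 2. Higher GDSL lipases were 4 without PBL19C3A library 1 and 4 without WT library 1.

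Families of organelle gene expression had more lower than higher members. Pentatricopeptide repeat proteins, which bind RNA in plastids and mitochondria, had 42 of 231 members lower and 5 higher, but 6 lower without PBL19C3A library 1, 15 without WT library 1 and 18 without WT library 2. The 18.2% lower is close to the 14.9% of all genes, and the 2.16% higher is far below the 21.3%. Upper-quartile factors gave 70 lower and 4 higher. DYW1 (AT1G47580), which edits a plastid transcript, stood at 9.35 and 10.7 FPKM in the PBL19C3A line, against 23.6 and 19.1 FPKM in WT (-1.14 ± 0.17, edgeR adjusted p = 0.00226). Plastid ribosomal proteins had 7 of 10 lower and 0 higher, but 0 lower without PBL19C3A library 1 or WT library 1, each by less than 1 on the log2 scale, as in PSRP6 (AT5G17870) at 103.5 and 119.5 FPKM in the PBL19C3A line, against 197.7 and 150.4 FPKM in WT (-0.68 ± 0.15, a call lost without PBL19C3A library 1 or WT library 1). Ribosomal proteins with eukaryotic family names, a match by name that covers part of the cytosolic ribosome, had 4 of 47 higher and 1 lower and a median of -0.07, but 3 higher and 14 lower under upper-quartile factors. In fits short of 1 library, higher pentatricopeptide repeat genes were 2 without PBL19C3A library 1, 3 without PBL19C3A library 2 and 2 without WT library 1.

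Several further families gave no clear direction. With upper-quartile factors more members were lower than higher among zinc, copper and heavy metal transporters (11 higher and 6 lower of 46, against 10 and 12), TCP, GRF and SPL factors (7 and 6 of 42, against 5 and 10) and IQ and CBP60 calmodulin-binding proteins (16 and 8 of 53, against 13 and 14). Genes named as aminoacyl-tRNA ligases, enzymes that charge transfer RNAs, had 8 higher and 8 lower of 51, but 5 and 17 under that scaling. This match by name also takes in genes named only for a domain of such enzymes, such as AT3G16565. Nudix hydrolases had 8 higher and 5 lower of 25, ATL ubiquitin ligases 6 and 2 of 19, signalling peptide precursors 2 and 2 of 20, and dirigent proteins 0 and 1 of 7. The nitrogen and proline list had 6 higher and 3 lower of 19. Sulfotransferases had 3 higher and 2 lower of 6, and the direction turned without WT library 1. On leaving out 1 library, higher ligases were 4 without PBL19C3A library 1, 5 without PBL19C3A library 2, 4 without WT library 1 and 5 without WT library 2. Lower ligases were 2 without PBL19C3A library 1, 4 without PBL19C3A library 2, 2 without WT library 1 and 3 without WT library 2. Higher metal transporters were 7 without WT library 1. Higher IQ and CBP60 proteins were 7 without WT library 1. Lower ones were 4 without PBL19C3A library 1, 4 without PBL19C3A library 2, 5 without WT library 1 and 5 without WT library 2. Lower nudix hydrolases were 1 without PBL19C3A library 1, 2 without PBL19C3A library 2, 2 without WT library 1 and 2 without WT library 2. Higher TCP, GRF and SPL factors were 4 without WT library 1. Higher ATL ligases were 3 without PBL19C3A library 1 and 3 without WT library 1. Lower ATL ligases were 1 without PBL19C3A library 1, 1 without PBL19C3A library 2, 1 without WT library 1 and 1 without WT library 2. Lower nitrogen and proline genes were 0 without PBL19C3A library 1 and 1 without WT library 2. Higher sulfotransferases were 1 without PBL19C3A library 1 and 1 without WT library 1. Lower sulfotransferases were 1 without PBL19C3A library 1, 1 without PBL19C3A library 2 and 1 without WT library 2.

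Genes of cell proliferation were also rarely called. Core and linker histones had 2 of 41 higher and 3 lower, DNA replication genes 1 higher and 1 lower of 28, and kinesins, motors of spindle and cell plate, 0 higher and 4 lower of 27, but 1 lower without PBL19C3A library 1, 0 without PBL19C3A library 2, 0 without WT library 1 and 2 without WT library 2. In the 4 fits that each left out 1 library, 0 or 1 histones were lower and 1 to 3 higher. Each of these shares is below or equal to that of all genes. The histone gene AT5G19490, with the largest change, stood at 1.82 and 2.59 FPKM in the PBL19C3A line, against 0.31 and 0.417 FPKM in WT (2.53 ± 0.41).

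Guard cell and vascular markers were mostly lower. In a whole rosette, fewer cells of a type cannot be told apart from less RNA per cell. Of 8 measured guard cell markers of 11 in the list, 6 were lower and 0 higher, but 1 lower without PBL19C3A library 1 and 2 without WT library 1, and their summed level was 29.4 and 32.8 FPKM in the PBL19C3A line, against 58.7 and 57.1 FPKM in WT. The potassium channel KAT1 (AT5G46240) stood at 3.37 and 3.69 FPKM in the PBL19C3A line, against 11.3 and 13.7 FPKM in WT (-1.87 ± 0.22, edgeR adjusted p = 0.000903). Of 12 measured phloem and xylem markers 9 were lower and 1 higher, but 4 lower without PBL19C3A library 1, 5 without PBL19C3A library 2 and 4 without WT library 1, with a summed level of 224.8 and 195.5 FPKM in the PBL19C3A line, against 325.6 and 285.4 FPKM in WT. The xylem protease XCP2 (AT1G20850) stood at 11.9 and 11 FPKM in the PBL19C3A line, against 32.1 and 25 FPKM in WT (-1.36 ± 0.17, edgeR adjusted p = 0.00121). No measured guard cell or vascular marker was listed at 0 in any of the 4 libraries. Trichome and epidermis markers had a summed level of 106.8 and 111.3 FPKM in the PBL19C3A line, against 105.8 and 105.3 FPKM in WT, although 4 of 7 were called lower and 1, TTG1, higher. TTG1 alone stood at 57.7 and 60.5 FPKM in the PBL19C3A line, against 30.9 and 30.9 FPKM in WT, and the other 6 summed to 49.1 and 50.8 FPKM in the PBL19C3A line, against 74.9 and 74.4 FPKM in WT. Of 12 root markers 4 were in the table, of which 2 were lower and 0 higher, with a summed level of 84.8 and 83.5 FPKM in the PBL19C3A line, against 122.1 and 141.7 FPKM in WT. Of 15 flower and seed markers 2 were in the table, of which 1 was lower, with a summed level of 2.73 and 2.02 FPKM in the PBL19C3A line, against 3.25 and 3.3 FPKM in WT. The part of cell composition in the family results was not tested. Where 1 library was absent, lower trichome and epidermis markers were 1 without PBL19C3A library 1. Lower root markers were 1 without PBL19C3A library 1, 1 without PBL19C3A library 2 and 1 without WT library 1.

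In all, 116 genes had at most 3 counts in each WT library. To be in the table a gene had to reach 1 CPM (counts relative to the depth of a library) in 2 or more of the 4 libraries, about 46.5 and 37.4 counts in the PBL19C3A libraries, so each of the 116 was bound to be well above WT, and their difference is a description with no test. The reverse set, with at most 3 counts in each PBL19C3A library, was empty. With a limit of 10 counts the sets held 215 and 9 genes. Of the 116, 78 were listed at 0 in both WT libraries. Counts of 1 or 2 were rarer than 0 (in WT library 1, 151 genes at 0, 1 at 1, 21 at 2 and 27 at 3), and 12 genes listed at 0 in one WT library had at least 20 counts in the other, up to 302 for CRF12. Of these 12 genes, 11 had their 0 in WT library 1. A listed 0 therefore need not be a true absence of reads. Folds given against it take it as 3 counts per library, and they are lower bounds only where the reads were truly that few.

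The 116 genes were mostly low in the PBL19C3A line too. Their median was 2.98 FPKM, 23 reached 10 FPKM and 12 stayed under 1 FPKM. In counts they ran from 48 to 3136 in library 1 and from 38 to 3146 in library 2. For 14 of them the 2 PBL19C3A libraries differed by more than 2-fold after scaling to the library totals. The 37 genes just inside the limit, with 2 or 3 as the higher of the WT counts, had a median of 3.83 FPKM in the PBL19C3A line, and the 27 just outside, with 4 or 5, had 3.42 FPKM.

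**Figure D4:**
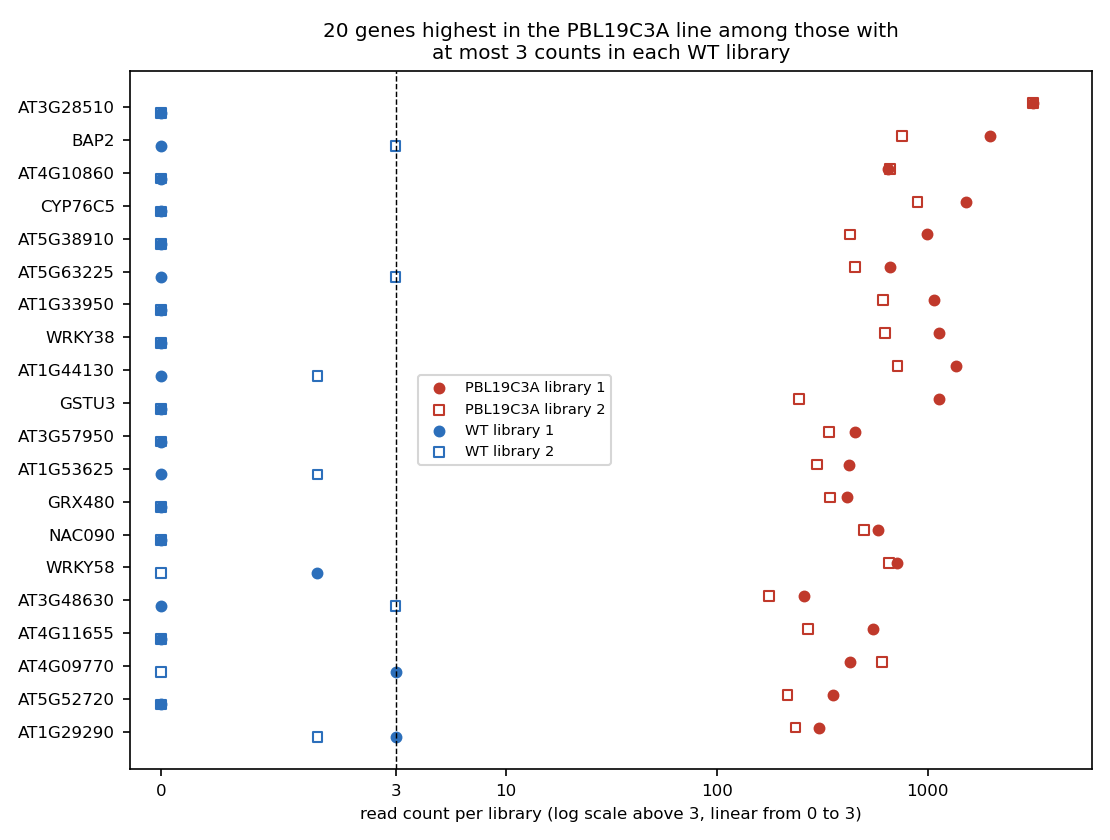
Read counts in the PBL19C3A libraries (red, upper row of each gene) and the WT libraries (blue, lower row) for the 20 genes with the highest mean FPKM in the PBL19C3A line among the 116 with at most 3 counts in each WT library. Circles are library 1 and squares library 2, and the dashed line marks 3 counts. The PBL19C3A counts lie between 177 and 3146, with AT1G29290 shown of the genes tied at a rounded mean of 10.2 FPKM.

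The highest of them were enzymes, regulators and membrane proteins of several kinds. AT3G28510, a P-loop nucleoside triphosphate hydrolase, had 3136 and 3146 counts in the PBL19C3A line, against 0 and 0 in WT. With each listed 0 taken as 3 counts, that is 1175-fold higher relative to the library totals. BAP2 (AT2G45760), a partner of the copine BON1 that restrains cell death, had 1964 and 753 counts in the PBL19C3A line, against 0 and 3 in WT. AT4G10860, a protein with no named function, had 648 and 660 counts in the PBL19C3A line, against 0 and 0 in WT. CYP76C5 (AT1G33730), a cytochrome P450, had 1515 and 894 counts in the PBL19C3A line, against 0 and 0 in WT. With the same floor, that is 437.9-fold higher.

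WRKY38 (AT5G22570), a repressor of basal defence, had 1126 and 625 counts in the PBL19C3A line, against 0 and 0 in WT, and WRKY58 (AT3G01080) had 714 and 654 counts in the PBL19C3A line, against 2 and 0 in WT. Both stood with WRKY59 and WRKY62, so 4 of the 116 encode WRKY factors. NAC090 (AT5G22380), a factor linked to salicylic acid and senescence, had 580 and 499 counts in the PBL19C3A line, against 0 and 0 in WT. GRX480 (AT1G28480), a glutaredoxin that binds TGA factors, had 416 and 344 counts in the PBL19C3A line, against 0 and 0 in WT. AT5G38910, a secreted cupin, had 996 and 427 counts in the PBL19C3A line, against 0 and 0 in WT.

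Some of the set differed strongly between the PBL19C3A libraries. GSTU3 (AT2G29470), a glutathione S-transferase, had 1130 and 246 counts in the PBL19C3A line, against 0 and 0 in WT. ADPG1 (AT3G57510), the pectin-cutting enzyme of abscission zones, had 1462 and 99 counts in the PBL19C3A line, against 0 and 0 in WT, the widest such gap among the named genes. In both, library 1 was the higher one. AT4G09770, a TRAF-like protein, ran the other way, with 428 and 605 counts in the PBL19C3A line, against 3 and 0 in WT.

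Further named members covered intracellular and surface immunity, hormones and metabolism. Among the 20 highest were also the carbohydrate-binding AT5G63225, the AIG1-type GTPase AT1G33950, the aspartyl protease AT1G44130, the copper-binding AT5G52720 and the membrane protein AT4G11655. AT3G57950, AT1G53625, AT3G48630 and AT1G29290, whose roles are not known to be established, completed these 20. AT1G29290 tied with AT5G57510 and ADPG1 at a rounded mean of 10.2 FPKM. By unrounded values AT5G57510 ranks above it, and the promoters of the 20 highest genes were read with AT5G57510. By product name, 5 genes of the 116 encode TIR-domain proteins, 5 copper transport or heavy metal proteins, 3 cytochrome P450s, 2 NAC factors, 2 cysteine-rich receptor kinases and 2 receptor-like proteins. The Polycomb gene MEA (AT1G02580), known in Arabidopsis for its imprinted expression in seeds, had 574 and 257 counts in the PBL19C3A line, against 0 and 0 in WT. NCED5 (AT1G30100), an enzyme of abscisic acid synthesis, had 101 and 47 counts in the PBL19C3A line, against 0 and 2 in WT, and TPS04 (AT1G61120), which makes a volatile terpene, had 130 and 59 counts in the PBL19C3A line, against 0 and 0 in WT. CLE14 (AT1G63245), a peptide hormone precursor, had 116 and 52 counts in the PBL19C3A line, against 0 and 2 in WT.

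The related lines differ in where these genes are listed. The sid2 mutant with the construct, which cannot make most of its salicylic acid, had 63 of the 116 in its table, and their mean CPM was a median of 0.737 times that in the PBL19C3A line, ranging from 0.0164 to 1.75. A gene nearly uncounted in WT is in the sid2 table only if both sid2 libraries reach about 1 CPM, so the 63 are those high in sid2, the rest have no value, and the ratio does not describe all 116. AT3G28510 had 53 and 70 counts in the sid2 line, the lowest ratio among them, while CYP76C5 had 1264 and 1383. The eds1 mutant with the construct had 2 of the 116 in its table. One, MRD1 (AT1G53480), had 708 and 844 counts in the eds1 line, and 65 and 38 counts in the PBL19C3A line, against 1 and 2 in WT. The WT libraries are the same in all 3 tables, and a gene outside a table has no value there.

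Some of the strongly changed genes were neighbours. Of the 1102 nuclear protein-coding genes at least 4-fold higher, 257 (23.3%) stood next to another such gene in the order of the RefSeq annotation, and the longest run held 6 genes. That run was CRK11 to CRK16, cysteine-rich receptor kinases on chromosome 4, with log2 fold changes from 2.29 to 5.14. A run of 5 on chromosome 5, from AT5G52720 to AT5G52760, held copper transport and heavy metal proteins, of which AT5G52760 stood at 68 and 65.1 FPKM in the PBL19C3A line, against 0 and 0.639 FPKM in WT and AT5G52740 at 23.2 and 29 FPKM in the PBL19C3A line and 0.113 and 0.289 FPKM in WT. Another run of 5, from AT5G22520 to AT5G22550, held 2 membrane proteins of the DUF247 type and 3 with no named function. A run of 4 on chromosome 1, from AT1G13520 to AT1G13550, held DUF1262 proteins, with AT1G13520 at 24.1 and 12.4 FPKM in the PBL19C3A line and 0.0367 and 0.0705 FPKM in WT. Of 893 genes at least 2-fold lower, 103 (11.5%) stood next to another, and the longest run held 4. Of 112 nuclear protein-coding genes with at most 3 counts in each WT library, 8 (7.14%) stood next to another of that set. The share that gene order alone would give was not worked out. These percentages come from sets of unlike size and cannot be compared with each other. Tandem copies in such runs can share reads, and whether the counting divided them is not known.

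Promoters were searched for 6 short motifs on both strands, from 250 bases before to 50 bases after the gene start in the RefSeq annotation of TAIR10.1. The W box, TTGACC or TTGACT, is the site that WRKY factors bind. It occurred in 57 of 112 promoters (50.9%) of the genes with at most 3 counts in each WT library, in 50.8% of 1102 genes at least 4-fold higher and in 23.7% of 893 genes at least 2-fold lower. Over all 17709 tested genes with a promoter the share was 32.8%, and over all 27443 promoters 32.4%. At least 2 W boxes occurred in 17.9%, 19.7% and 4.37% of the same 3 sets and in 7.92% of all tested genes. The genes barely counted in WT and the genes at least 4-fold higher had nearly equal shares. These sets overlap, so the likeness of their shares is not a separate observation.

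The other motifs separated the sets less. TGACG, the core of the element that TGA factors bind, occurred in 24.1% of the genes with at most 3 counts in WT, 29.3% of those at least 4-fold higher, 19.7% of those at least 2-fold lower and 23.9% of all tested. CACGTG, the G box of bHLH and bZIP factors, occurred in 6.25%, 6.08%, 10.8% and 8.91% of these sets. The GCC box GCCGCC of ethylene response factors, the evening element AAAATATCT of the clock and the endoplasmic reticulum stress element, CCAAT and CCACG with 9 bases between, occurred in under 5% of every set. A match is a run of letters and not a shown binding site.

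**Figure D5:**
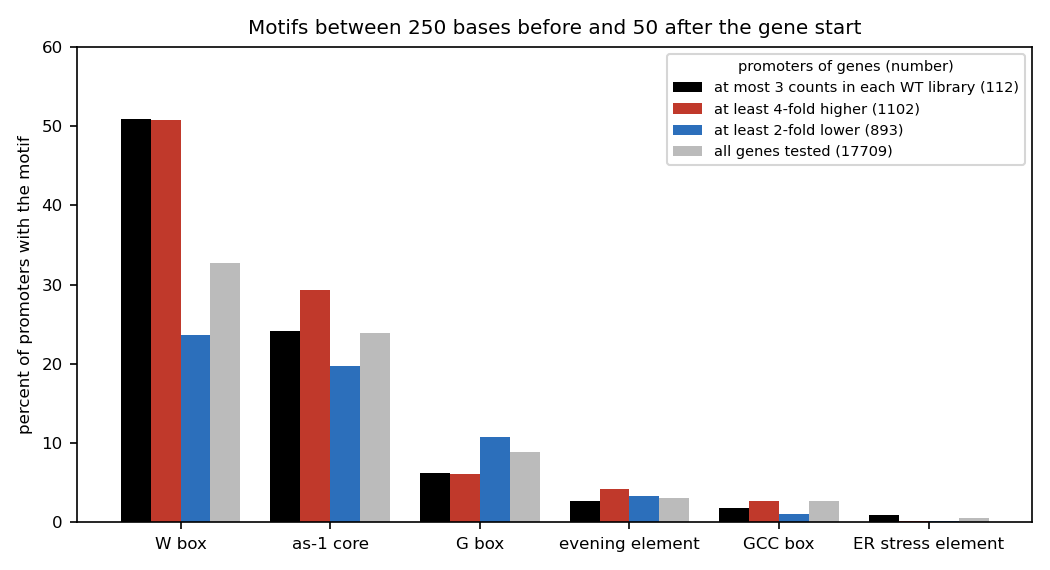
Percent of promoters holding each of 6 motifs, for genes with at most 3 counts in each WT library (black), at least 4-fold higher (red), at least 2-fold lower (blue) and all tested genes (grey), with the number of promoters in the legend. The W box is in 50.9%, 50.8%, 23.7% and 32.8% of these sets, of which the black and the red share genes.

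Promoters of 4 of the 20 highest genes show the range. The 250 bases before each gene start are given 5′ to 3′ along the gene's strand, from the RefSeq sequence of TAIR10.1, with W boxes of either orientation in capitals. AT1G44130 (chr1:16789437-16789686, minus strand) and GSTU3 (chr2:12629641-12629890, minus strand) were the 2 with more than 1 W box there among the 20 highest genes with a promoter in the annotation. BAP2 (chr2:18847836-18848085, minus strand) has 1, close to the gene start, and AT3G28510 (chr3:10685220-10685469, plus strand), the highest of the set, has 0.
AT1G44130: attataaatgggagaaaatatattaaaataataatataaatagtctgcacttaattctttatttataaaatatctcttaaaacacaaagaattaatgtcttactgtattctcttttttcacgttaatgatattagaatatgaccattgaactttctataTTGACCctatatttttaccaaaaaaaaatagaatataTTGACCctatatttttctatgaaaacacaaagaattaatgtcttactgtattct
GSTU3: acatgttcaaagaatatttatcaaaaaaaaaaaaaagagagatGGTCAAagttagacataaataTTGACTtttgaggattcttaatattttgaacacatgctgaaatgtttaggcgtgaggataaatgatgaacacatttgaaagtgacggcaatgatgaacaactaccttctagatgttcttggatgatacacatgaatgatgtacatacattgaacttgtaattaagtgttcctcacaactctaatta
BAP2: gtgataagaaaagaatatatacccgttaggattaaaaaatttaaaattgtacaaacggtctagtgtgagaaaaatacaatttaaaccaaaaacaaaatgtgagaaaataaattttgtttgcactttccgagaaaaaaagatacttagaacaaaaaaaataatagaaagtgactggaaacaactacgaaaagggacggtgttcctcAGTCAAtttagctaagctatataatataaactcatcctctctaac
AT3G28510: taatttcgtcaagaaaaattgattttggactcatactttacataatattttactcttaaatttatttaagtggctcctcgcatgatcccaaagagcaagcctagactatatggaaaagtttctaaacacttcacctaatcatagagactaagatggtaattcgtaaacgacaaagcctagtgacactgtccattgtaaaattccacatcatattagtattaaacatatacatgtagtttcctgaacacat

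In AT1G44130 both W boxes lie in the same orientation, each within a repeated stretch of letters, and the gene had 1360 and 718 counts in the PBL19C3A line, against 0 and 2 in WT. In GSTU3 the W boxes face opposite ways, far from the gene start. AT3G28510 reached the highest count of the 116 genes without a W box in this window.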

How the data were processed

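The authors mapped reads with HISAT2 2.0.4 to TAIR10, per the submitters' processing notes, and the gene counter and its strand setting are not given in the sources used here. The deposited tables hold read counts and FPKM per gene, per the file headers. Each of the 18048 genes reached 1 CPM in at least 2 of the 4 libraries, and 206 are unnamed loci outside the reference annotation. Counts were fitted with edgeR 4.0.16 in R 4.3.3 (TMM factors, quasi-likelihood test, Benjamini-Hochberg adjustment over all genes at 0.05), using every library a gene had values for. A floor of 3 counts per library was used for folds against a listed 0, and it covers counting error only, while ± values are edgeR standard errors that include the spread between libraries. On simulated counts over 18048 genes the test recovered 48% of 100 genes changed 2-fold and 100% of 100 changed 4-fold, with 5 false calls. The simulation changed only those genes, all of them well counted, and gave every gene the same spread. These rates therefore do not carry over to the real comparison, where far more genes changed. Alternatives used DESeq2 1.42.0 and, on log2(FPKM + 1), limma 3.58.1. Promoters came from the RefSeq annotation of TAIR10.1, and 17715 genes matched it. Families and lists were chosen with earlier results of these data known. Named genes are PBL19, up to 4 called members per family with the largest fold change, the 15 highest and 15 lowest called genes of at least 10 FPKM, and of genes with at most 3 counts in each WT library the 20 highest and those in a family. AOX1A, NDA1, FUM1, TAPX, GID1B, XTH17, MEA, NCED5, MRD1, CRF12, AUX1, LAX1, LAX2, LAX3, PID, IAR3, ILR1, WRKY59, WRKY62, AT1G29930 and the members of gene runs were named after their values were seen. In each family whose median is given here, genes listed at 0 in both WT libraries lie above it. Setting them at the floor of 3 counts leaves that median as it is.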

Additional observations from a re-analysis of the deposited data

How the results depend on the processing

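The count of 6533 changed genes lay between 3710 and 4760 when 1 library was left out, with 2549 to 2949 genes higher and 1161 to 1811 lower. Upper-quartile factors gave 3015 higher and 4141 lower. The other settings stayed within 1.5 times of the main counts: 5996 genes with only the 4 libraries of both genotypes, 7134 with DESeq2, 6522 with RLE factors, 5847 of 14587 genes at 5 CPM or more and 5955 with limma on FPKM. No called gene turned direction in any of these fits. Libraries 1 and 2 of the genotypes share only a number, and deviations of same-numbered libraries correlated at 0.134 to 0.345 between genotypes. With the number as a replicate block 7609 genes were called, 4342 higher and 3267 lower, and the iron list turned to 3 higher and 4 lower. Of 301 named genes 79 lost their call without some library. In 12 of 73 families and lists the majority direction turned in some setting, in 8 of them under upper-quartile factors and in 6 under another. More members were higher than lower in 41 of the 73. The 116 genes with at most 3 counts in each WT library became 78 at 0 counts, 215 at up to 10, and 148 to 200 with the limit applied to 1 WT library. Among genes at 0 the endoplasmic reticulum stress element occurred in 0.0% of promoters. The cause of these shifts was not tested. With 2 libraries per genotype, small changes such as those of the proteasome and organelle families are at the limit of what the counts can call.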

Other observations

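At a limit of 10 counts, 9 genes were nearly uncounted in the PBL19C3A line, against 215 in WT, and these 9 were chosen by their values and carry no test here. ACS4, an enzyme of ethylene synthesis, had 7 and 10 counts in the PBL19C3A line, against 64 and 66 in WT. WOX2, a homeobox factor known from the early embryo, had 0 and 9 counts in the PBL19C3A line, against 51 and 70 in WT. AT1G19320, a thaumatin-like protein of a family usually counted among the defence proteins, had 4 and 3 counts in the PBL19C3A line, against 50 and 51 in WT. The others were the glutaredoxin gene AT2G47880, the subtilase gene AT5G03620, the carrier gene AT2G18480, the kinase gene AT5G61350 and a pair of unnamed loci. The 206 unnamed loci of the table included 40 that were higher and 23 that were lower in the PBL19C3A line. Both shares lie below those over all genes, 21.3% higher and 14.9% lower.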
